A study of Solanum tuberosum with 2 samples.

Results

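Among 5 potato genes named for cell wall and starch metabolism, beta-amylase 1 was 13.7-fold higher in cut explants than in uncut plantlets. Protein ESKIMO 1-like was 4.30-fold lower, and galacturonosyltransferase-like 10 was 3.50-fold higher. Beta-D-xylosidase 1 and a gene annotated as extensin-like protein were a little lower in the cut explants, by differences close to that of the median gene. The 5 genes were found by their identifiers among the 40430 genes quantified, and 5 of 5 had at least 50 reads over both libraries. The values came from a pair of mRNA libraries of 4-week-old wild-type potato, cultivar Desirée, grown in vitro. The cut library was made from single-node segments with 1 leaf that had been severed from plantlets, and the uncut library from intact plantlets. The ultrasound study that named the 5 genes used the cut library at 0 h, its first sampling time. Neither group carried a transgene or had any agent applied. The labels name leaf as the tissue of both. RNA of 3 biological replicates was pooled into 1 library per condition according to the methods, so there was no spread between replicates, no test was possible, and every interval below is a 95% interval for counting error only.

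The primary plant cell wall is a network of cellulose, xyloglucan and pectin with structural glycoproteins, and the secondary wall of xylem adds xylan and lignin. Pectins and hemicelluloses such as xylan are made in the Golgi apparatus, where many are acetylated, and are secreted to the wall, where glycoside hydrolases trim them. Leaf starch is built in the chloroplast by day and is degraded to maltose largely by beta-amylases. Of the 5 genes, 2 carry names of hydrolases that break down polysaccharides (beta-amylase 1 and beta-D-xylosidase 1), whereas galacturonosyltransferase-like 10 and protein ESKIMO 1-like carry names of enzymes that build or modify the wall. The name of the extensin-like gene is uncertain, since its best protein match in the paper's annotation was an RNA-binding protein 26-like protein of potato.

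By the methods, the cut explants lacked organs that the uncut plantlets had, and this touches every difference below. Of 3 genes with names linked to the root endodermis, 3 were lower in the cut explants by at least 2 on the log2 scale. Over all genes with at least 50 reads, 7.35% were lower by this much. The summed level of the 3 root endodermis genes was 41.1 reads per 1000000 reads of the library (RPM) in the cut library. In the uncut library it was 424 RPM. CASP-like protein 1 (PGSC0003DMG400022659), a member of the family that includes the Casparian strip membrane proteins, had 11 reads in the cut library against 915 in the uncut library, and its levels were 0.325 and 24.1 RPM. Over 8 leaf photosynthesis genes (chlorophyll a-b binding proteins, whose similar copies uniquely aligned reads may undercount, and a carbonic anhydrase), single genes had levels of 4.40 to 71.7 RPM in the cut library and 9.83 to 82.3 RPM in the uncut library, and 1 of the 8 was lower by at least 2. Their summed level was 191 RPM in the cut and 270 RPM in the uncut library. Photosynthesis genes were thus read in both libraries, and the root markers mostly in the uncut one. Cutting and the loss of organs cannot be told apart in this design, and in RNA from whole samples a smaller share of a cell type cannot be told apart from less RNA per cell.

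Differences are given as cut minus uncut in log2 RPM, and a gene was called different at an absolute difference of at least 2 (4-fold) with at least 50 reads over both libraries. By this rule 1 of the 5 genes was higher in the cut explants, against 8.25% of the 21688 genes with enough reads, and 1 was lower, against 7.35%. The other 3 genes were not called, while 15.6% of all genes were called in either direction. At a looser difference of at least 1, 2 of the 5 were higher and 1 was lower, against 16.4% and 22.5% of all genes, or 38.9% in either direction. The median difference of all 21688 genes was -0.33, so a gene with this value kept its place among the others.

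**Figure D1:**
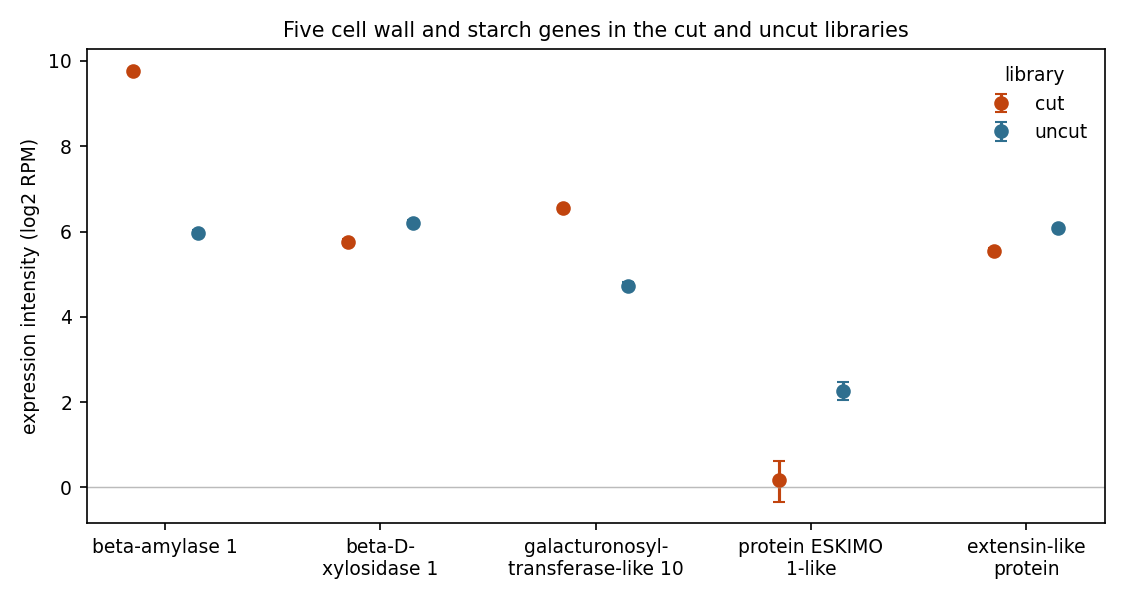
Expression intensity (log2 RPM, vertical axis) of the 5 genes in the cut library (left point of each pair) and the uncut library (right point). Bars are 95% Poisson intervals for counting error, narrower than the points except for protein ESKIMO 1-like, which was at 0.17 in the cut and 2.27 in the uncut library.

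Beta-amylase 1 (PGSC0003DMG400001549, chromosome 9, 57420528 to 57423450, plus strand, SolTub 3.0) is a plastid enzyme that removes maltose from the ends of starch chains. It had 29168 reads in the cut library and 2388 reads in the uncut library. Its level was 862 RPM (852 to 872) in the cut explants and 62.9 RPM (60.4 to 65.5) in the uncut plantlets. The difference was 3.78 (95% interval 3.72 to 3.84), larger than for 97.3% of all genes with enough reads. The study listed this gene for the first sampling time after ultrasound, through a comparison that used the cut library, so this library took part in its choice. For that time the paper reports a saccharogen amylase, another name for beta-amylase, as down-regulated by ultrasound. A high value in the cut library would thus favour the choice of this gene.

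Beta-amylase 3, chloroplastic-like (PGSC0003DMG402020509), a second plastid beta-amylase, went the other way. It had 833 reads in the cut library and 2579 in the uncut library, a difference of -1.47 (-1.58 to -1.35) that did not reach the call. The ratio of beta-amylase 1 to beta-amylase 3 reads was therefore 35.0 in the cut and 0.926 in the uncut library. This ratio changed by 5.24 on the log2 scale (5.11 to 5.37), a value that does not depend on how the libraries were scaled. In Arabidopsis, beta-amylase 1 is known for starch breakdown in guard cells and under osmotic stress, and beta-amylase 3 for starch breakdown in leaves at night. Of the 2 guard cell markers examined, transcription factor FAMA (PGSC0003DMG400015760) had 322 reads in the cut and 120 in the uncut library, and its paralogue FAMA-like (PGSC0003DMG400029634) had 838 and 391 reads in the same order. Their differences were 1.59 and 1.26, both smaller than that of beta-amylase 1, and their part in its difference was not tested.

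Among the other genes placed with starch and sucrose metabolism, 0 of 5 were higher by the call, 1 was lower, and the median difference was -1.47. This grouping rests on gene names alone. Of all genes with enough reads 8.25% were higher and 7.35% lower, so 1 call among 5 genes says little about the list. Alpha-glucosidase YihQ-like (PGSC0003DMG400008345) was the one called lower. It had 46 reads in the cut and 408 in the uncut library, a difference of -2.98 (-3.46 to -2.54). Apoplastic invertase (PGSC0003DMG401028252), which splits sucrose in the wall space, was the 1 of the 5 above 0. It had 538 reads in the cut and 256 reads in the uncut library, a difference of 1.24 that did not reach the call. Sucrose synthase-like (PGSC0003DMG400013547) and sucrose synthase (PGSC0003DMG400002895), which supply UDP-glucose from sucrose, had differences of -1.57 and -1.32. In this short list beta-amylase 1 and the invertase thus stood above 0, and the other beta-amylase, both sucrose synthases and the glucosidase stood below 0. The median of all genes was -0.33, so most genes stood below 0 as well, and this split is nothing particular to the list.

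Beta-D-xylosidase 1 (PGSC0003DMG400022933, chromosome 11, 31228391 to 31237587, plus strand) belongs to the glycoside hydrolases of family GH3 and in Arabidopsis releases xylose and arabinose from wall polysaccharides. It had 1819 reads in the cut and 2812 reads in the uncut library, with levels of 53.7 RPM (51.3 to 56.3) in the cut explants and 74.1 RPM (71.4 to 76.9) in the uncut plantlets. The difference was -0.46 (-0.55 to -0.38), and 43.8% of all genes had a lower one. The interval excludes 0, yet relative to the median gene the difference was only -0.13. Its place was thus near the middle of all genes, and with 1 library each no spread is known to set it against. This gene too was listed for the first sampling time, by a comparison that used the cut library.

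Probable galacturonosyltransferase-like 10 (PGSC0003DMG400001396, chromosome 2, 46665732 to 46667302, plus strand) belongs to a family of Golgi glycosyltransferases (GT8) whose members in Arabidopsis have been linked to pectin and xylan synthesis. It had 3152 reads in the cut library and 1009 reads in the uncut library. Its level was 93.1 RPM (89.9 to 96.4) in the cut explants against 26.6 RPM (25.0 to 28.3) in the uncut plantlets. The difference was 1.81 (1.71 to 1.91), higher than for 90.7% of all genes. It lay 0.19 under the call threshold, just outside it, and the upper end of its interval was also below 2. Set against the median gene it was 2.14, and it is called higher when the libraries are scaled so that the median gene has no difference. The study chose this gene at 24 h, on libraries other than those compared here.

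Protein ESKIMO 1-like (PGSC0003DMG400027728, chromosome 3, 35304057 to 35306586, plus strand) is named after the Arabidopsis protein that acetylates xylan in the Golgi apparatus and whose loss leads to collapsed xylem vessels and freezing tolerance. It had the fewest reads of the 5, with 38 reads in the cut and 183 reads in the uncut library. Its level was 1.12 RPM (0.794 to 1.54) in the cut explants and 4.82 RPM (4.15 to 5.57) in the uncut plantlets. The difference was -2.10 (-2.65 to -1.59), lower than for all but 6.46% of genes. It lay just inside the call, by 0.10, and its interval crosses the threshold. The call is lost when the median gene is set to no difference (-1.77) and on a log2(RPM + 1) scale (-1.46), while the direction stays. The study chose this gene at 48 h, on other libraries.

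The difference of ESKIMO 1-like was near those of other genes named for the secondary wall and xylem. Of 8 such genes 0 were higher and 5 were lower by the call, and the median difference was -2.15. Over all genes with enough reads, 8.25% were higher and 7.35% lower, with a median of -0.33. The interval of ESKIMO 1-like held 6 of the 8, but it is wide because that gene had few reads. The share of all genes inside this interval was not computed. The study listed all 8 at 48 h, the time at which it also listed ESKIMO 1-like. COBRA-like protein 4 (PGSC0003DMG400024530), whose Arabidopsis counterpart is needed for cellulose in secondary walls, had 235 reads in the cut and 1611 in the uncut library, a difference of -2.61. Laccase-4-like (PGSC0003DMG400011019) and laccase-12-like (PGSC0003DMG402027116), from a family that polymerises lignin, had differences of -2.54 and -2.05. Fasciclin-like arabinogalactan proteins 11 (PGSC0003DMG400003371) and 12 (PGSC0003DMG400041435), linked to stem fibres and xylem in Arabidopsis, had differences of -2.24 and -2.43. Protein trichome birefringence-like 3 (PGSC0003DMG401004451), of the same family of acetyltransferases as ESKIMO 1, had 52 reads in the cut and 146 in the uncut library, a difference of -1.32 that was not called. A xylem marker that did not follow was one xylem cysteine proteinase 1-like gene (PGSC0003DMG400009921), with 393 reads in the cut and 487 in the uncut library and a difference of -0.14. Over the 5 of these genes taken as xylem markers the summed level was 23.1 RPM in the cut and 77.3 RPM in the uncut library, 0 of the 5 were without reads in either library, and their part in the lower value of ESKIMO 1-like was not tested.

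The gene annotated as extensin-like protein (PGSC0003DMG401032203, chromosome 1, 1940714 to 1946323, minus strand) had 1581 reads in the cut and 2574 reads in the uncut library. Its level was 46.7 RPM (44.4 to 49.1) in the cut explants and 67.8 RPM (65.2 to 70.5) in the uncut plantlets. The difference was -0.54 (-0.63 to -0.45), or -0.20 relative to the median gene, and 40.6% of genes had a lower one. Extensins are hydroxyproline-rich glycoproteins that crosslink in the wall, but the RNA-binding protein named as the best match is no wall protein. The RefSeq gene of that match spans 5724 bp and the gene quantified here spans 5610 bp. It was also listed for the first sampling time. Of 5 genes named for structural wall proteins in the lists, 4 had enough reads. By the call 0 were higher and 1 was lower, and their median difference was -1.73. All genes with enough reads had 8.25% higher and 7.35% lower, with a median of -0.33. The gene called lower was classical arabinogalactan protein 9-like (PGSC0003DMG400009783), with 1680 reads in the cut and 8291 in the uncut library and a difference of -2.14 (-2.21 to -2.06). A gene for a glycine-rich structural wall protein (PGSC0003DMG400002108) had 27 reads in the cut and 65 in the uncut library. Its difference was -1.10 (-1.81 to -0.43), a wide interval that holds the value of the extensin-like gene. Another gene of this kind (PGSC0003DMG400015809) had 248 and 907 reads in the same order. Its difference was -1.71 (-1.91 to -1.50), which excludes that value. Pistil-specific extensin-like protein (PGSC0003DMG400029700) had 1384 and 5253 reads in the same order, a difference of -1.76, and extensin-1 (PGSC0003DMG400000794) had only 3 and 11 reads.

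**Figure D2:**
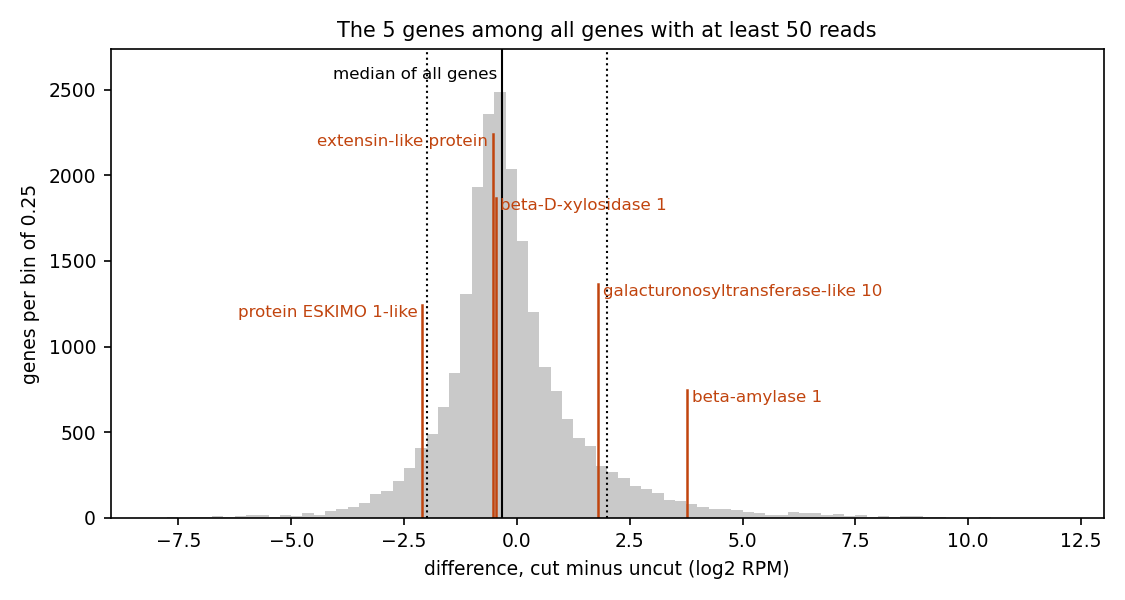
Number of genes (vertical axis) per bin of 0.25 of the difference cut minus uncut in log2 RPM (horizontal axis) for the 21688 genes with at least 50 reads. Red lines mark the 5 genes (their heights carry no value), the solid line the median of -0.33 and the dotted lines the call at -2 and 2; beta-D-xylosidase 1 and the extensin-like gene sit beside the median, and beta-amylase 1 sits far in the upper tail at 3.78.

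The 5 genes did not move together. Their differences spanned 5.88 on the log2 scale, with 2 above 0, 3 below 0 and a median of -0.46. Most of all genes stood below 0 too, with a median of -0.33. In 9 of the 10 pairs that the 5 genes form, the interval of the difference between the members of a pair excluded 0. The exception was the pair of the extensin-like gene and beta-D-xylosidase 1, where it was -0.07 (extensin-like gene minus beta-D-xylosidase 1, interval -0.20 to 0.05). These intervals hold counting error only, and the same share over other pairs of genes was not computed. The count of pairs therefore shows nothing particular to the 5 genes. The ratio of reads of galacturonosyltransferase-like 10 to ESKIMO 1-like was 82.9 in the cut and 5.51 in the uncut library. This is a change of 3.91 (3.39 to 4.46) between genes that both carry names of Golgi enzymes for wall polysaccharides.

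Other genes that the paper's annotation names for the wall, starch or sucrose, chitinases included, were more often lower than higher by the call in the cut explants. Over the 8 lists of wall and starch genes, which hold 43 genes besides the 5, 41 genes had enough reads, of which 3 were higher and 12 lower by the call. These are 7.32% and 29.3% of the genes with enough reads, beside the 8.25% and 7.35% of all genes given above, and the median difference was -1.47, beside -0.33 for all genes. The 43 genes come from the study's tables of ultrasound-responsive genes, many of them at 48 h. The same shares over the other genes of those tables were not computed. The contrast with all genes is therefore not shown to be particular to wall and starch genes. Of the 43 genes, 2 were picked on the cut library itself. Without these 2 genes, a setting chosen after seeing the data, 3 were higher and 10 lower.

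**Figure D3:**
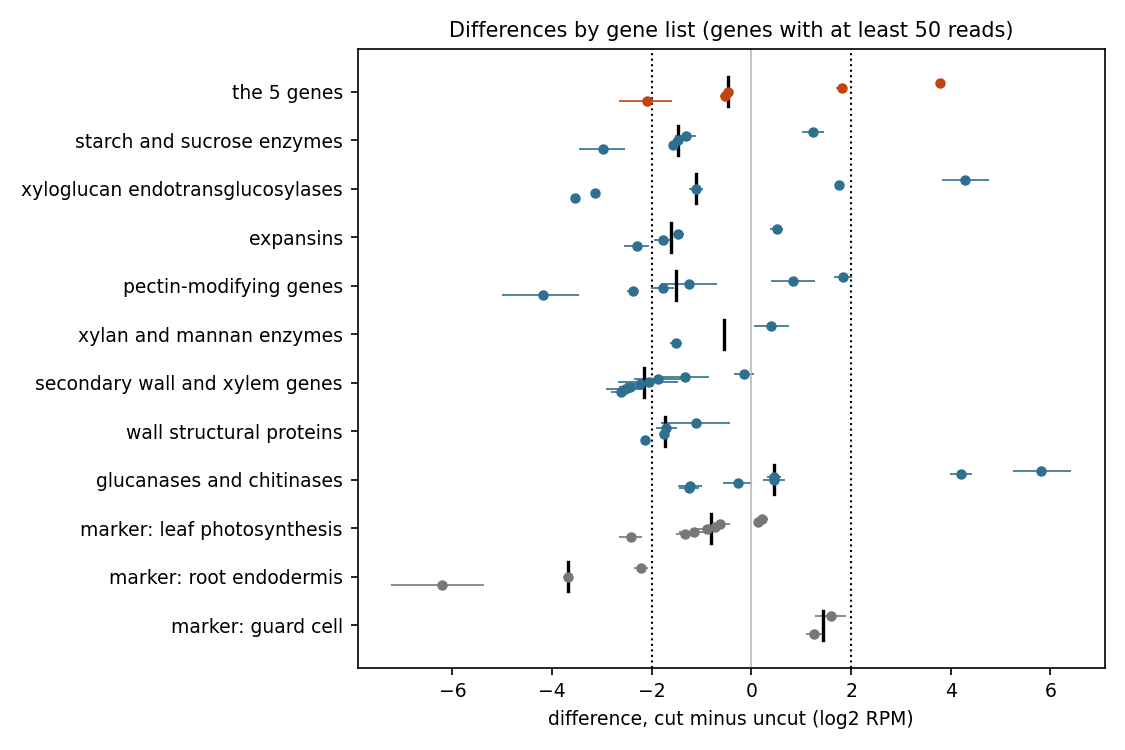
Difference cut minus uncut in log2 RPM (horizontal axis) of each gene with at least 50 reads, by list (rows); horizontal bars are 95% intervals for counting error, black ticks are list medians and dotted lines the call at -2 and 2. The 5 genes (top row) spread from -2.10 to 3.78, 8 of 8 secondary wall and xylem genes lie below 0, and 3 of 3 root endodermis markers lie below -2. Most of all genes also lie below 0 (median -0.33), and 7.35% are called lower.

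Xyloglucan endotransglucosylase/hydrolases, which cut and rejoin the xyloglucan chains that tether cellulose, differed in both directions. Of 5 such genes 1 was higher and 2 were lower by the call, with a median of -1.11. The shares over all genes with enough reads were 8.25% higher and 7.35% lower, with a median of -0.33. Xyloglucan endotransglucosylase/hydrolase 2-like (PGSC0003DMG400021877) had 5581 reads in the cut and 72936 reads in the uncut library, a difference of -3.54 (-3.58 to -3.50). Xyloglucan endotransglucosylase/hydrolase protein 9 (PGSC0003DMG400026189) had 3720 reads in the cut and 36957 in the uncut library, a difference of -3.15 (-3.20 to -3.10). Both were listed for the first sampling time, so the cut library took part in their choice. The one called higher was probable xyloglucan endotransglucosylase/hydrolase protein 16 (PGSC0003DMG400017298), with 712 reads in the cut and 41 in the uncut library and a difference of 4.28 (3.83 to 4.77).

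Expansins loosen the wall without cutting its polymers, and 0 of 4 were higher and 1 was lower by the call, with a median of -1.62. For this list and the next ones, the shares over all genes were 8.25% higher and 7.35% lower, with a median of -0.33. The gene named expansin (PGSC0003DMG400023815) had 154 reads in the cut and 849 in the uncut library, a difference of -2.30. Among 7 genes that modify pectin, 6 had enough reads, and 0 of these were higher and 2 lower, with a median of -1.51. Both were named pectinesterase-like, an enzyme that removes methyl groups from pectin. The first (PGSC0003DMG400002074) had 16 reads in the cut and 325 in the uncut library, a difference of -4.18. The second (PGSC0003DMG400002085) had 653 reads in the cut and 3787 in the uncut library, a difference of -2.37. Another gene of that name (PGSC0003DMG400031791) had 1106 reads in the cut and 348 in the uncut library, a difference of 1.83 (1.66 to 2.01), close to that of galacturonosyltransferase-like 10. Neither of the 2 xylan and mannan enzymes was called. Endo-1,4-beta-xylanase A-like (PGSC0003DMG400008413), which like beta-D-xylosidase 1 is named for xylan breakdown, had 642 reads in the cut and 2054 in the uncut library, a difference of -1.51 (-1.64 to -1.38).

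Glucanases and chitinases were the only one of the 8 lists with a median above 0 (0.45), and 2 of their 7 genes were higher and 0 lower by the call. Among all genes with enough reads, 8.25% were higher and 7.35% lower. Endochitinase EP3-like (PGSC0003DMG400025063), an enzyme that cleaves chitin and belongs to a family known for defence, had 1342 reads in the cut and 27 in the uncut library, a difference of 5.80 (5.25 to 6.41). Acidic mammalian chitinase-like (PGSC0003DMG400011842) had 3104 reads in the cut and 189 in the uncut library, a difference of 4.20 (3.99 to 4.42). Under scaling to the median gene the calls over the 8 lists became 5 higher and 8 lower.

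The 5 genes lie on 5 different chromosomes and overlap no other gene of the deposited table. Among the 50 genes that stand within 5 places of them, 37 had enough reads, of which 4 were higher and 2 lower by the call. Over all genes with enough reads, 8.25% were higher and 7.35% lower. Beta-amylase 1 had a larger difference than its neighbours with enough reads, but also than 97.3% of all genes. A gene that high lies above most groups of 7 genes, so this shows nothing particular about the place of beta-amylase 1. The nearest gene on each side had 0 reads in both libraries (12261 bp before it) or 2 reads in the cut and 0 in the uncut library (2002 bp after it), and the 7 neighbours with enough reads had differences of -0.37 to 1.13. For ESKIMO 1-like, the nearest genes had 7 reads in the cut and 8 in the uncut library (25972 bp before it) and 0 reads in both (1249 bp after it). Its 7 neighbours with enough reads ranged from -3.04 to 3.84, with 2 higher and 1 lower by the call.

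Galacturonosyltransferase-like 10 had 2 genes called higher within 3 places of it. The gene 5796 bp before it had 2984 reads in the cut and 2189 in the uncut library, a difference of 0.61, and the gene 340 bp after it, on the opposite strand, had 8748 and 8960 reads in the same order, a difference of 0.13. The next gene on that side, 6820 bp away, was higher in the cut explants by 2.51, and the one at 9286 bp was also called higher, with 307 reads in the cut and 43 in the uncut library. For the extensin-like gene 0 of the 8 neighbours with enough reads were called, and they ranged from -1.45 to 0.38. The gene 4948 bp before it had 111 reads in the cut and 221 in the uncut library, and the gene 22939 bp after it had 0 and 2 reads. For beta-D-xylosidase 1, 1 of 6 was called, at -3.36, and the nearest gene on each side (14887 bp before and 2286 bp after) had 0 reads in both libraries.

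**Figure D4:**
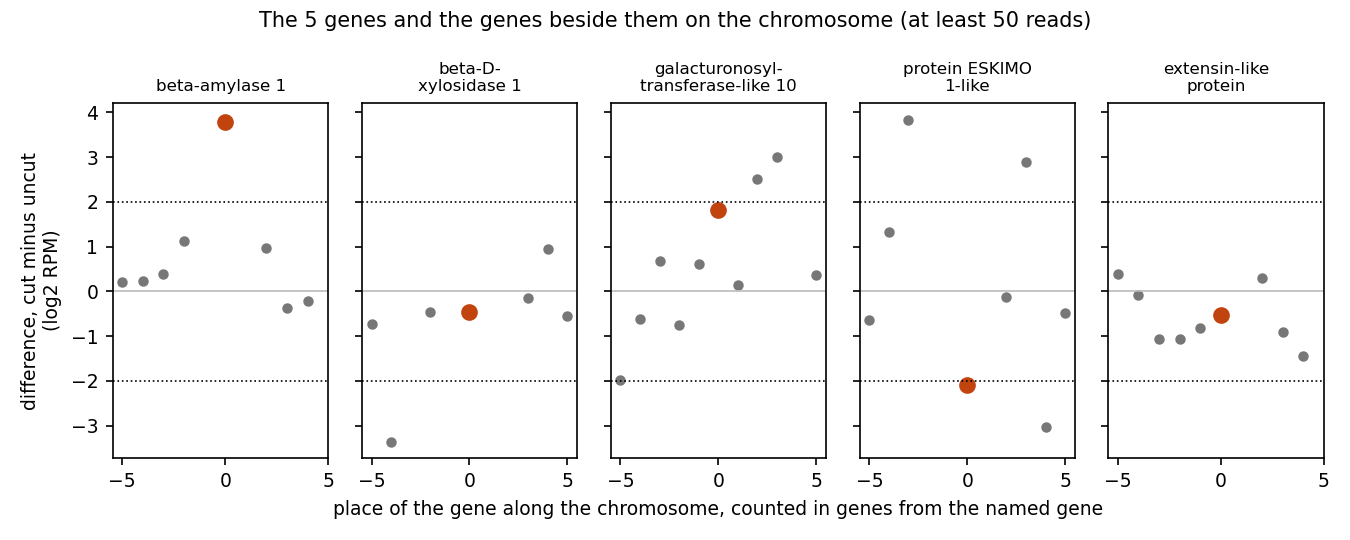
Difference cut minus uncut in log2 RPM (vertical axis) of each of the 5 genes (large red point) and of the genes with at least 50 reads among the 5 on each side (grey points), by their order along the chromosome (horizontal axis, in genes). Dotted lines mark the call at -2 and 2. Beta-amylase 1 at 3.78 lies above all 7 of its neighbours, which reach 1.13, and above 97.3% of all genes with at least 50 reads.

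Likeness to the 5 genes was measured as the distance in log2 RPM over the 2 libraries, among the 332 other named genes of the paper's annotation with enough reads. These distances are between values in RPM that are not per length, over 2 points per gene, and describe no shared control. Protodermal factor 1-like (PGSC0003DMG400007796), known from the epidermis of shoots, was the nearest gene both to beta-D-xylosidase 1 (distance 0.06) and to the extensin-like gene (0.18), with 1770 reads in the cut and 2720 in the uncut library. The second nearest were a gene for a replication protein A subunit (PGSC0003DMG400009893) for beta-D-xylosidase 1 (0.12) and UPF0503 protein At3g09070, chloroplastic-like (PGSC0003DMG400011018) for the extensin-like gene (0.18). Nearest to galacturonosyltransferase-like 10 was protein MICRORCHIDIA 7-like (PGSC0003DMG400028231, distance 0.19), with 2839 reads in the cut and 928 in the uncut library, followed by an uncharacterized protein (PGSC0003DMG400024972, 0.34). Nearest to ESKIMO 1-like were a hypothetical protein (PGSC0003DMG400017261, 0.23) and POS2 (PGSC0003DMG400015772, 0.33). The genes nearest to beta-amylase 1 were Kunitz-type protease inhibitor precursor (PGSC0003DMG400009511), with 25965 reads in the cut and 3206 in the uncut library at a distance of 0.46, and L-ascorbate oxidase homolog (PGSC0003DMG400010025) at 0.79.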

How the data were processed

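Per the methods and the submitters' processing notes, the authors trimmed reads (Trim Galore 0.5.0), aligned pairs to SolTub 3.0 (HISAT2 2.1.0), kept unique alignments, counted reads over exons (SeqMonk 1.42.0), corrected for library totals and deposited log2 RPM. Whether counting used strand was not given in the sources used here. Read numbers were recovered from the steps between values (100% of values under 1000 reads were whole within 0.05 read). Genes without reads stood at 0.9 read. Totals were 33850940 (cut) and 37955480 (uncut), and reads on genes were 1.77 times these in both. Among genes with 2 to 20 reads, 54.2% in the cut and 51.7% in the uncut library had even numbers. Numbers would all be even if every pair gave 2 reads to its gene. Whether some pairs were counted as 2 reads was not settled. Intervals (exact Poisson for a level, Clopper-Pearson for a ratio, conditional exact for a difference between genes) assume independent reads. The script was tested on simulated reads.

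Members and lists were chosen with earlier results of these data known. Named genes are the 5 members, every called gene of the 8 wall and starch lists, the 2 nearest by distance in log2 RPM and the flanking genes. Other list genes and the marker genes were named after their values were seen. Best protein matches of 5 of 5 members were in the RefSeq gene table (SolTub_3.0). Exon lengths were not analysed here, so the distances between genes in log2 RPM are not corrected for length, and no gene was called more or less expressed than another. Alternatives were 3 scalings, 2 pseudocounts, 3 read minima, 2 thresholds and the 2 added later. Tools were Python (3.11.15) with numpy (2.4.6) for arrays, scipy (1.17.1) for intervals, pandas (2.3.3) for tables and matplotlib (3.10.9) for figures.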

Additional observations from a re-analysis of the deposited data

How the results depend on the processing

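The 5 genes kept their direction under 3 scalings and 2 pseudocounts, 5 of 5 in each. Scaling to the median gene moved the difference to -0.20 for the extensin-like gene, -0.13 for beta-D-xylosidase 1, 2.14 for galacturonosyltransferase-like 10 and 4.11 for beta-amylase 1, so that 2 of the 5 were higher and 0 lower. Scaling to the upper quartile gave -0.45, -0.37 and 3.87 for the extensin-like gene, beta-D-xylosidase 1 and beta-amylase 1. On the log2(RPM + 1) scale ESKIMO 1-like was at -1.46, so that 0 of the 5 were lower. These moves follow from shifting every gene alike and from shrinking low values. A threshold of 1 gave 2 higher members, and a threshold of 3 gave 0 lower. Over the 8 lists, median scaling gave 5 higher genes and a median of -1.13, log2(RPM + 1) a median of -1.30, a threshold of 1 gave 6 higher and 28 lower, and a threshold of 3 gave 3 lower.

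Read counts were also divided by 2, as an outer case for pairs counted as 2 reads, a setting chosen after seeing the data. The interval would then be -2.91 to -1.39 for ESKIMO 1-like and 1.66 to 1.96 for galacturonosyltransferase-like 10. A count of 0 is taken to allow 3 reads, or 0.0886 RPM in the cut and 0.0790 RPM in the uncut library. No paired analysis was possible because cut and uncut had 1 library each.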
